A study of Mus musculus with 6 samples.

Results

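NF-kB is the family of transcription factors through which microglia, the resident macrophages of the brain and spinal cord, switch on inflammatory genes. Transcripts of its subunits and of its feedback inhibitors were measured in mouse microglia that had been co-cultured with neutrophils with or without Cd177, the gene of a neutrophil surface glycoprotein. The 10 genes were taken by symbol from a deposited table of 55335 gene identifiers. They were the subunit genes Nfkb1, Nfkb2, Rel, Rela and Relb, the cytoplasmic inhibitor genes Nfkbia, Nfkbib and Nfkbie, the nuclear IkB protein gene Nfkbiz, and Tnfaip3, which encodes the ubiquitin editing enzyme A20. All 10 were found in the table, and all 10 passed the filter on low values.

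All microglia were primary cells of WT genotype, grown from whole brains of newborn C57BL/6 mice and shaken off on day 14. In 3 libraries they had been kept for 24 h with neutrophils of Cd177 WT mice (WT libraries), and in 3 libraries with neutrophils of Cd177 KO mice (KO libraries). These neutrophils came by magnetic sorting from the spinal cord lesions of adult male mice at 3 days after a contusion injury (strain of the Cd177 KO mice not given in the sources used here), and the microglia were recovered by FACS before total RNA was extracted. The cells are called microglia here after their label, since 10 of 15 microglia markers were under 1 FPKM on average, with Sall1, Fcrls and C1qa listed at 0 in every library, and the identity of the cells is therefore in doubt. No library of microglia without neutrophils was analysed here, so a value in the WT libraries is not a resting level. The labels do not say whether the 3 libraries of a group came from separate cultures or neutrophil donors, so each p-value measures only the spread between these libraries, which may be technical.

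The NF-kB subunits work as dimers. Nfkb1 and Nfkb2 encode precursors that are cut to the DNA-binding subunits p50 and p52, while Rela, Relb and Rel encode subunits that carry an activation domain. In resting cells the IkB proteins, products of Nfkbia, Nfkbib and Nfkbie, hold the dimers in the cytoplasm, and on stimulation the IkB kinase marks them for destruction so that the dimers enter the nucleus. Several genes of the pathway are themselves transcribed by NF-kB, above all Nfkbia and Tnfaip3, whose products then shut the signal down. RNA levels alone show neither the cleavage of the precursors nor the position of a dimer in the cell.

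All 10 transcripts were lower in the KO libraries, and in none did the values of the groups overlap. The smallest difference was that of Rela, 1.10-fold lower, and the largest that of Nfkbiz, 9.995-fold lower. All 10 passed an adjusted p of 0.05 in limma, where 43.3% of the 11395 genes tested did so, 18.8% in the lower and 24.5% in the higher direction. For Rela this call was close to the threshold and was lost in 8 of 15 alternative settings. Groups free of overlap were found for 55.8% of the genes tested, and for 24.6% in the lower direction. On the log2(FPKM + 1) scale, a fold above 2 at an unadjusted p under 0.05 and a lower level were found for 6 of the 10 genes, against 2.02% of the genes tested in that direction and 2.57% in either. Nfkbie, 2.001-fold lower in mean FPKM, did not reach 2-fold on that scale. The median log2 change of the 10 genes was -1.17, and that of all genes tested was 0.024. In bulk RNA, fewer cells with a transcript and less of the transcript per cell cannot be told apart.

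**Figure D1:**
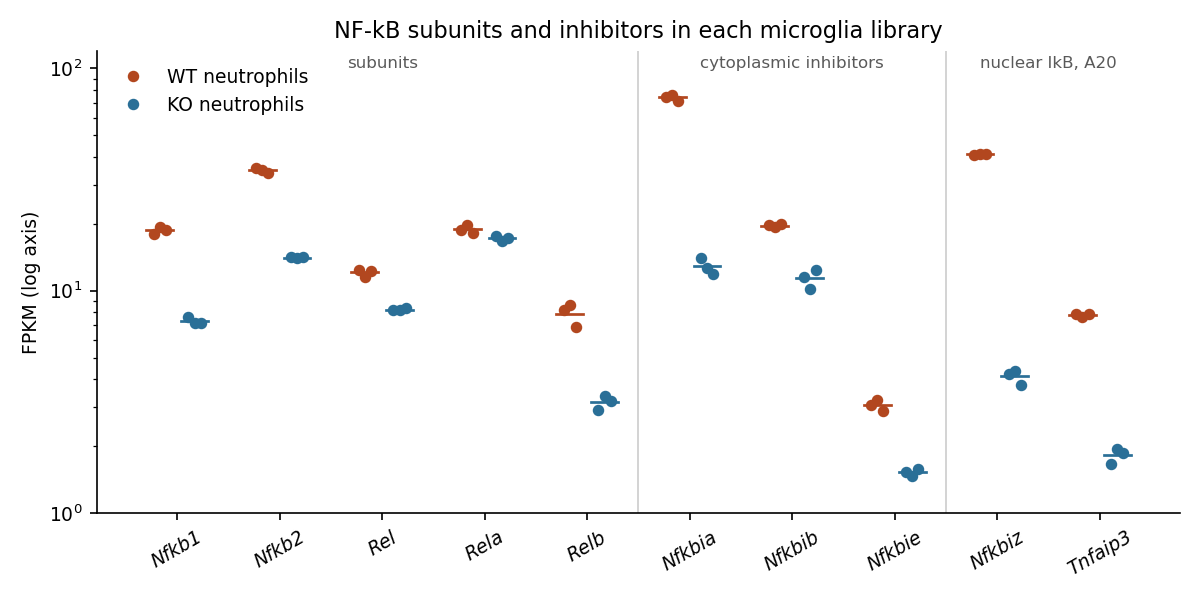
Level of the 10 genes in each microglia library, in FPKM (fragments per kilobase of transcript, scaled to the mapped fragments of the library; log axis), with WT libraries in red, KO libraries in blue and a bar at each group mean (n = 3 per group). The groups lie close together for Rela, at 18.9 and 17.3 FPKM, and farthest apart for Nfkbiz, at 41.2 and 4.12 FPKM.

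Because several of these genes are themselves known NF-kB targets, their promoters were read for the kB consensus, the short motif that NF-kB dimers bind. The form read was GGGRNWYYCC, where R is A or G, W is A or T, Y is C or T and N is any base. RefSeq start sites of build GRCm38.p6 were matched by symbol for 7 of the 10 genes, and Nfkb1, Relb and Nfkbiz had no entry. The window ran from 250 bases before to 50 bases after each start, both strands were read, and overlapping matches were counted. A match was held by the promoters of Nfkb2, Rel, Nfkbia, Nfkbie and Tnfaip3, which is 5 of 7 genes, and by 5.14% of the 27025 genes with an entry. Among single promoters the share was 4.505% of 32851. No match lay in the windows of Rela and Nfkbib, which says only that these letters are not there. A looser form, GGG and CC with any 5 bases between them, was found in 53.5% of all genes with an entry and in 6 of the 7 genes. The Rela window held 3 matches to this looser form, and that of Nfkbib held none.

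The sequences below show promoters of inhibitor and of subunit genes with and without a match. No link between a match and the size of a change was tested, and Nfkbib, with no match, fell by more than Rel, with a pair of matches. Each is the part of the window outside annotated exons, on the strand of the gene and 5′ to 3′, with matches to the kB consensus in capitals. The promoter of Nfkbia, at chr12:55492648-55492897, held a match at -29 to -20, counted in bases from the start. In that of Tnfaip3, at chr10:19015411-19015547, matches began at -125 and -12 from the first start, and the window of its second start held none. The promoter of Rel, at chr11:23770971-23771219, held a pair of overlapping matches that began at -92. The stretches of Nfkbib, at chr7:28766645-28766734, and of Rela, at chr19:5637291-5637482, held none.
Nfkbia: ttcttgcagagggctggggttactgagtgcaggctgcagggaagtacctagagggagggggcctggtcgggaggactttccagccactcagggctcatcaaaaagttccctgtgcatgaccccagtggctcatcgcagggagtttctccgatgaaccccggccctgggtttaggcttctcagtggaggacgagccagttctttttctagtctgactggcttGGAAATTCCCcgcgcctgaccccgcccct
Tnfaip3: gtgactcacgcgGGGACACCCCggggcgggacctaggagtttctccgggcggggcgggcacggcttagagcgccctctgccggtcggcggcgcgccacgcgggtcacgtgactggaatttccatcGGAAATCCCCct
Nfkbib: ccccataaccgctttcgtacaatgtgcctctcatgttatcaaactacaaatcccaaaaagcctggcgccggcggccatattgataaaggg
Rel: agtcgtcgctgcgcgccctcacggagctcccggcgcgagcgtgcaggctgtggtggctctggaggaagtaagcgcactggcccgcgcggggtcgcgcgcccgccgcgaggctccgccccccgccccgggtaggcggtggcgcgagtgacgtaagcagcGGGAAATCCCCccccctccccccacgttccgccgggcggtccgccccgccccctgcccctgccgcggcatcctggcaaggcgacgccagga
Rela: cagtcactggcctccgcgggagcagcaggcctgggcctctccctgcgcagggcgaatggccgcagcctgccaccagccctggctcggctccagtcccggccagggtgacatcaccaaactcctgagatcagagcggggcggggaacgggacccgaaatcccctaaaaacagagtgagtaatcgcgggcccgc

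The promoters of Nfkb2 and Nfkbie are given by their matches alone, each with up to 4 bases on either side. At Nfkb2 an overlapping pair of matches lay at chr19:46304694-46304712 and a separate match at chr19:46304722-46304736, both upstream of the first RefSeq start of the gene. Windows of its further starts held a match at -236 to -227 from the second start and a match at 10 to 19 from it, which is also at -225 to -216 from the third, and these are not printed. At Nfkbie the match lay at chr17:45555590-45555607.
Nfkb2 overlapping pair: tcacGGGAATTCCCCccct
Nfkb2 separate match: gaaaGGGGCTTTCCc
Nfkbie: aacaGGGGGATTCCggag

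**Figure D2:**
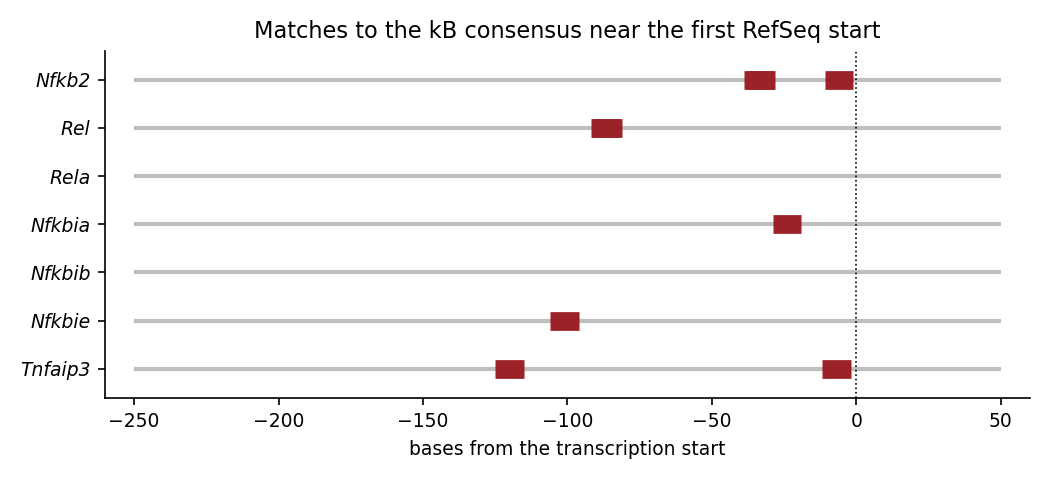
Position of each match to the kB consensus (red boxes) in the promoters of the 7 genes with a RefSeq entry, in bases from the first transcription start (dotted line), with the window read as a grey line. Nfkb2, Nfkbia and Tnfaip3 each have a match that ends at -20 or nearer to the start, Tnfaip3 has a further match that begins at -125, and the lines of Rela and Nfkbib are empty.

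The subunit genes were compared first. Nfkb1 lies on chromosome 3 (chr3:135584655-135691547, minus strand, GRCm38) and encodes p105, the precursor of p50. Its level was 18.0, 19.4 and 18.7 FPKM in WT libraries 1 to 3 and 7.61, 7.18 and 7.20 FPKM in KO libraries 1 to 3. The lowest WT library lay well above the highest KO library. Group means were 18.7 ± 0.709 and 7.33 ± 0.242 FPKM (SD, n = 3), a 2.55-fold lower level in the KO libraries. On the log2(FPKM + 1) scale, which understates the change of low genes, the difference was -1.24 (SE 0.042, limma adjusted p = 4.63e-06).

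Nfkb2 (chr19:46304320-46312385, plus strand) encodes p100, the precursor of p52 that also acts as an inhibitor of dimers with RelB. It was the most abundant subunit transcript in the WT libraries, at 35.5, 34.9 and 34.0 FPKM, and stood at 14.13, 14.05 and 14.11 FPKM in the KO libraries. The 3 KO libraries were almost identical, and all lay far below the WT libraries. The level was 2.47-fold lower, with a log2 difference of -1.25 (SE 0.028, limma adjusted p = 8.52e-07). Exons of Psd and AC114539.1 on the opposite strand overlap 830 exonic bases of Nfkb2, and the strand setting of the quantification is not given in the sources used here. Psd was at 2.33 to 3.14 FPKM in the WT and 1.39 to 1.43 FPKM in the KO libraries, and AC114539.1 at 3.27 to 6.01 and 4.21 to 4.46 FPKM. Both stood below Nfkb2 in every library.

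Relb (chr7:19606217-19629438, minus strand) encodes RelB, the partner of p52 in the non-canonical pathway. Its level was 8.19, 8.58 and 6.84 FPKM in the WT libraries and 2.92, 3.36 and 3.19 FPKM in the KO libraries. WT library 3 was the lowest of its group and still lay 2.04-fold above the highest KO library. The group means differed 2.49-fold, with a log2 difference of -1.09 (SE 0.088, limma adjusted p = 0.000171). The coefficient of variation of Relb in the WT libraries, 11.6%, was the highest of any of the 10 genes in either group.

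Rel (chr11:23736847-23770970, minus strand) encodes c-Rel, a subunit abundant in immune cells. It was listed at 12.4, 11.6 and 12.3 FPKM in the WT libraries and at 8.15, 8.16 and 8.35 FPKM in the KO libraries. The groups did not overlap, but the drop was smaller than those of Nfkb1, Nfkb2 and Relb. The level was 1.47-fold lower, with a log2 difference of -0.51 (95% interval -0.60 to -0.41, limma adjusted p = 0.000156), and this interval did not reach that of Relb, -1.30 to -0.88.

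Rela (chr19:5637483-5648130, plus strand) encodes p65, the activating partner of p50 in the classical dimer. Its level was 18.8, 19.7 and 18.2 FPKM in the WT libraries and 17.7, 16.8 and 17.2 FPKM in the KO libraries. The groups were separated by only 0.509 FPKM. The log2 difference was -0.13 (95% interval -0.22 to -0.029, limma adjusted p = 0.0442), and 26.9% of the genes tested had a larger fall. The call was lost without WT library 1 (adjusted p = 0.0918), WT library 2 (0.111), KO library 1 (0.0579), KO library 2 (0.123) or KO library 3 (0.101), and was kept without WT library 3 (0.0391). It was also lost with no filter on low values (0.0755), without the variance trend of limma (0.0599) and with the replicate number as a block (0.095).

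The cytoplasmic inhibitors were compared next. Nfkbia (chr12:55489410-55492647, minus strand) encodes IkBα, the inhibitor that is made anew after each round of NF-kB activation. It was the most abundant of the 10 transcripts in the WT libraries, at 74.6, 76.0 and 71.4 FPKM, and was listed at 14.0, 12.6 and 11.9 FPKM in the KO libraries. Every WT library held at least 5.09 times the level of the highest KO library. The group means, 74.0 ± 2.37 and 12.9 ± 1.08 FPKM (SD, n = 3), differed 5.76-fold. With a log2 difference of -2.44 (SE 0.059, limma adjusted p = 1.1e-06), Nfkbia ranked 29 among the 11395 genes tested when ordered from the largest fall.

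Nfkbib (chr7:28758251-28767512, minus strand) encodes IkBβ, an inhibitor that is less tied to NF-kB activity than IkBα. Its level was 19.7, 19.3 and 19.9 FPKM in the WT libraries and 11.5, 10.2 and 12.4 FPKM in the KO libraries. The WT libraries lay close together and above all KO libraries. The level was 1.72-fold lower, with a log2 difference of -0.74 (SE 0.067, limma adjusted p = 0.00029). Exons of Sirt2 and Ccer2 on the opposite strand overlap 356 exonic bases of Nfkbib. Sirt2 was at 7.19 to 8.69 FPKM in the WT and at 6.22 to 8.36 FPKM in the KO libraries, which overlap, and Ccer2 was listed at 0 in all 6.

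Nfkbie (chr17:45555703-45563169, plus strand) encodes IkBε, an inhibitor that is induced later than IkBα. It was the least abundant of the 10 transcripts in both groups, at 3.05, 3.21 and 2.89 FPKM in the WT and 1.53, 1.46 and 1.58 FPKM in the KO libraries. The KO mean was 49.98% of the WT mean, and the groups did not overlap. Its log2 difference of -0.68 (SE 0.059, limma adjusted p = 0.000238) is on the scale with 1 FPKM added, which weighs on a gene at this level. Nfkbie fell below a stricter filter of 5 FPKM on the mean of the 6 libraries, as did Tnfaip3.

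Nfkbiz (chr16:55811375-55838899, minus strand) encodes IkBζ, which does not hold dimers in the cytoplasm but joins p50 in the nucleus and is needed for transcription of a set of late inflammatory genes. Its level was 41.0, 41.3 and 41.4 FPKM in the WT libraries and 4.24, 4.37 and 3.77 FPKM in the KO libraries. The WT values spanned less than 1 FPKM, and the lowest of them was 9.38 times the highest KO value. Nfkbiz had the largest difference of the 10 genes, 9.995-fold, with a log2 difference of -3.04 (SE 0.050, limma adjusted p = 2.46e-07) and rank 16 among all genes tested from the largest fall.

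Tnfaip3 (chr10:19000910-19015657, minus strand) encodes A20, which takes apart the ubiquitin chains that carry the signal to the IkB kinase. It stood at 7.90, 7.59 and 7.87 FPKM in the WT libraries and at 1.67, 1.95 and 1.86 FPKM in the KO libraries. No KO library came near a WT library. The difference was 4.26-fold, with a log2 difference of -1.64 (SE 0.056, limma adjusted p = 4.63e-06), and only 0.75% of the genes tested had a larger fall.

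**Figure D3:**
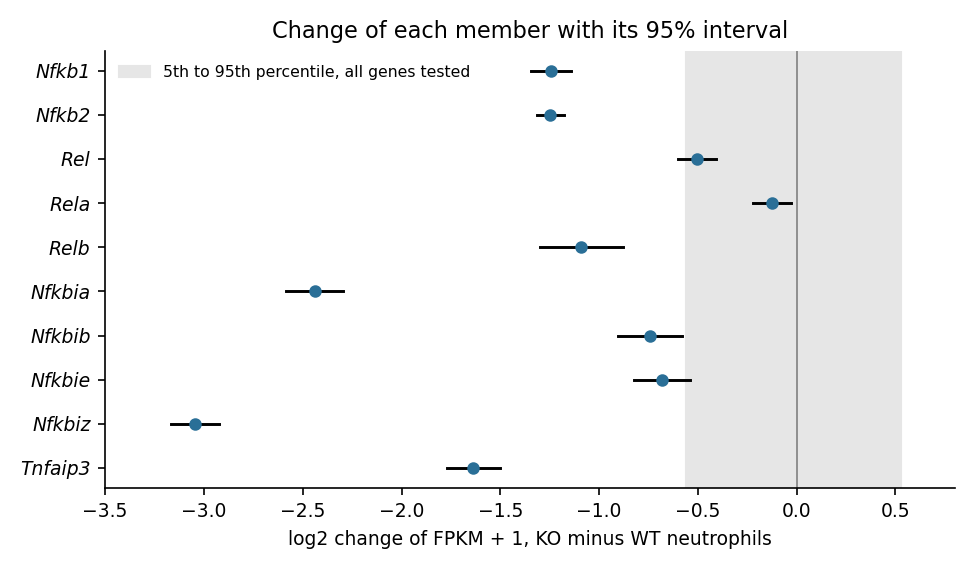
Log2 change of FPKM + 1, KO minus WT libraries, of each of the 10 genes with its 95% limma interval (bars, n = 3 per group). Grey marks the 5th to 95th percentile of all genes tested, -0.56 to 0.53, in which the points of Rel and Rela lie, while the points of the other genes lie below it.

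With 3 libraries against 3 the smallest p that an exact two-sided permutation test can give is 0.1, and each of the 10 genes reached it. The p-values above therefore come from limma, which shares the estimate of the spread across genes. The 9 genes other than Rela kept their direction and their call in every alternative setting that tested them, other than the 2-fold threshold. The largest adjusted p in any of them was 0.00448, for Nfkbie.

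FPKM is scaled by transcript length, so levels of different genes can be set in order. In the WT libraries the order from the highest was Nfkbia, Nfkbiz, Nfkb2, Nfkbib, Rela, Nfkb1, Rel, Relb, Tnfaip3 and Nfkbie. The ranges of Nfkbib, Rela and Nfkb1 overlapped from each gene to the next there, as did those of Relb and Tnfaip3. In the KO libraries the order was Rela, Nfkb2, Nfkbia, Nfkbib, Rel, Nfkb1, Nfkbiz, Relb, Tnfaip3 and Nfkbie, and only the ranges of Nfkbia and Nfkbib overlapped. Rela, on rank 5 in the WT libraries, thus stood first in the KO libraries, and Nfkbiz moved from rank 2 to rank 7. Among all genes tested, Nfkbiz stood at percentile 90.3 of level in the WT and at percentile 29.9 in the KO libraries, and Rela at percentiles 76.9 and 74.2.

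Ratios within a library do not depend on the scaling between libraries, and Rela served as the reference since it differed least. As Rela was chosen for the smallest fall of the 10, lower ratios of the 9 other genes follow from that choice, and they are given as a description of size with no test. The largest shift was that of Nfkbiz, from 2.18 transcripts per Rela transcript to 0.239, a log2 difference of -3.19. Nfkbia went from 3.91 to 0.744 and Tnfaip3 from 0.412 to 0.106. The smallest shift was that of Rel, from 0.639 to 0.476, a log2 difference of -0.42. Nfkb1, which encodes the usual partner of p65, stood at 0.989 transcripts per Rela transcript in the WT and at 0.425 in the KO libraries.

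Summed levels were computed after the values of the single genes had been seen. The 5 subunit genes together held 93.0, 94.3 and 90.0 FPKM in the WT and 50.5, 49.6 and 50.1 FPKM in the KO libraries, a 1.85-fold difference of the means. The 3 cytoplasmic inhibitor genes together held 97.4, 98.6 and 94.2 FPKM in the WT and 27.1, 24.3 and 25.9 FPKM in the KO libraries, a 3.75-fold difference. The larger difference of the inhibitor sum rests on Nfkbia, since the median log2 change was -0.74 over the 3 inhibitor genes and -1.09 over the 5 subunit genes, and Nfkbib and Nfkbie had smaller changes than Nfkb1, Nfkb2 and Relb. The inhibitor sum divided by the subunit sum was 1.047, 1.045 and 1.046 in the WT libraries, almost without spread, and 0.536, 0.490 and 0.518 in the KO libraries (exact permutation p = 0.1, the smallest possible).

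The make-up of each sum also differed between the groups. Rela made up 20.5% ± 0.415 of the subunit sum in the WT and 34.5% ± 0.564 in the KO libraries (SD, n = 3), and Rel 13.1% and 16.4%. The shares of Nfkb2, from 37.7% to 28.2%, Nfkb1, from 20.3% to 14.6%, and Relb, from 8.51% to 6.31%, were lower in the KO libraries. Nfkbia made up 76.5% ± 0.666 of the inhibitor sum in the WT and 49.9% ± 3.44 in the KO libraries, and Nfkbib 20.3% and 44.2%. Each of these shares was free of overlap between the groups. The ratio of Nfkb2 to Relb, whose products pair as p52 and RelB, was 4.34, 4.07 and 4.97 in the WT and 4.83, 4.18 and 4.42 in the KO libraries. These values overlapped, with a mean difference of 0.020 beside SDs of 0.461 and 0.330 (exact permutation p = 1.0), so the 2 transcripts were not shown to fall unequally.

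**Figure D4:**
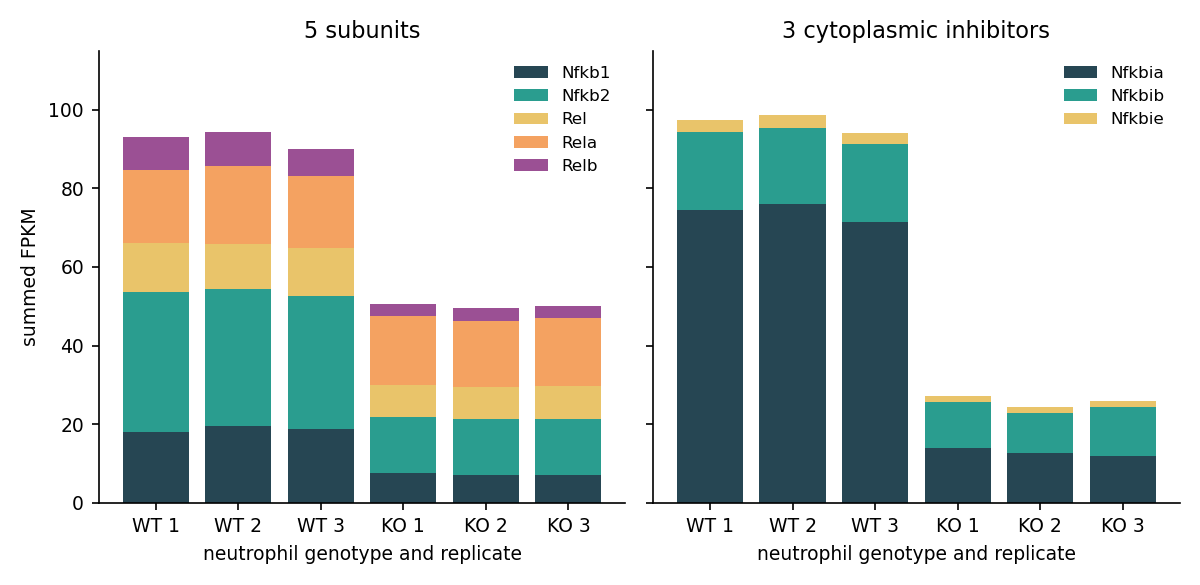
Summed FPKM of the 5 subunit genes (left) and of the 3 cytoplasmic inhibitor genes (right) in each library, stacked by gene. The subunit sums lie at 90.0 to 94.3 FPKM in the WT and 49.6 to 50.5 FPKM in the KO libraries while the Rela layer keeps nearly the same height, and the inhibitor sums lie at 94.2 to 98.6 and 24.3 to 27.1 FPKM, with most of the difference in the Nfkbia layer.

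Other genes of the pathway were counted in 3 lists written from general knowledge, with earlier results of these data known. Of 18 further IkB proteins and brakes of NF-kB signalling, 16 were tested, and Tnip3 (0.512 to 0.566 FPKM in the WT and 0.179 to 0.190 FPKM in the KO libraries) and Ptpn22 (0.851 to 0.893 and 0.451 to 0.650 FPKM) lay below the filter. In this list 9 fell, 1 rose and 6 did not pass the test, so that 62.5% were called, against 43.3% of all genes tested (18.8% lower and 24.5% higher), with a median log2 change of -0.14. Bcl3, which encodes a nuclear IkB protein that works with p50 and p52, was at 6.91, 7.05 and 6.86 FPKM in the WT and 1.90, 1.80 and 2.28 FPKM in the KO libraries, 3.48-fold lower (log2 difference -1.41, limma adjusted p = 2.06e-05). Tnip1, which encodes an A20-binding protein, was at 47.2, 45.5 and 49.0 FPKM and 18.6, 20.5 and 19.6 FPKM, 2.41-fold lower (log2 difference -1.23, limma adjusted p = 5.83e-06). The other tested genes of the list that fell did so by less than 2-fold. Tank, Nfkbil1 and Rnf11 fell by 0.41, 0.37 and 0.36 on the log2 scale. Itch, which encodes a ubiquitin ligase of the A20 complex, was the gene that rose, by 0.14 on the log2 scale (limma adjusted p = 0.0156), and it lost its call when the libraries were rescaled to a common sum (0.0718).

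Of 27 kinases and ubiquitin enzymes that carry the signal to NF-kB, 26 were tested and Map3k8 lay below the filter. Here 8 fell, 6 rose and 12 did not pass the test, so that 53.8% were called, with a median log2 change of -0.065. This lies near the 43.3% of all genes tested, and is no result about these genes as a group. Birc3, which encodes the ubiquitin ligase cIAP2 and is itself a known NF-kB target, was at 15.4, 13.8 and 15.1 FPKM in the WT and at 5.24, 4.41 and 5.01 FPKM in the KO libraries, 3.02-fold lower (log2 difference -1.42, limma adjusted p = 1.79e-05). Ikbke, which encodes the inducible IkB kinase relative IKKε, was at 10.33, 10.15 and 10.04 FPKM and at 4.48, 4.19 and 4.44 FPKM, 2.33-fold lower (log2 difference -1.06, limma adjusted p = 7.38e-06). The remaining falls in this list were under 2-fold. Chuk, which encodes the catalytic subunit IKKα, fell by 0.27 on the log2 scale (adjusted p = 0.00694 in limma). Fbxw11 and Cul1, which belong to the ligase that marks IkB proteins for destruction, fell by 0.36 and 0.24. Skp1a and Rbx1 of the same ligase rose by 0.38 and 0.31, so parts of this ligase moved in different directions. Rbck1, Tab1 and Cdc37 rose by 0.27, 0.25 and 0.11, but these calls were not all firm. Tab1 lost its call without WT library 1 (limma adjusted p = 0.068), without WT library 2 (0.0538) and with no filter (0.0516), and Cdc37 lost its call in 8 settings, among them the common sum (0.169).

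Of 48 further known NF-kB target genes, some of which, such as Traf1, Traf2, Tnfrsf1b, Cd40 and Tlr2, also encode receptors and adaptors that signal to NF-kB, 41 were tested. In this list 37 fell, 1 rose and 3 did not pass the test, so that 92.7% were called, against 43.3% of all genes tested, with a median log2 change of -1.42, and 28 were more than 2-fold lower on the log2(FPKM + 1) scale (2.02% of all genes tested were). Several of these genes were already known to fall in these libraries when the list was written, so the count is not independent evidence of its direction. Csf3, the gene of the granulocyte growth factor G-CSF, was at 122.3, 126.8 and 125.2 FPKM in the WT libraries and was listed at 0 in all KO libraries. Cxcl2, which encodes a neutrophil-attracting chemokine, was at 120.8 and 0.596 FPKM in the group means, and Ptgs2, which encodes the prostaglandin-forming enzyme COX-2, at 168.4 and 3.97 FPKM. The monocyte-attracting chemokine genes Ccl2 and Ccl3 had group means of 1169 and 48.0 FPKM and of 3059 and 613 FPKM. Plau, the gene of the urokinase plasminogen activator, was the target that rose, with 93.3, 88.9 and 89.2 FPKM in the WT and 165, 171 and 162 FPKM in the KO libraries, 0.87 higher on the log2 scale (limma adjusted p = 4.63e-06). The 3 targets that did not pass were Bcl2l1, Icam1 and Irf1, named after their values were seen, with log2 differences of -0.78, -0.15 and 0.18 (limma adjusted p = 0.139, 0.0536 and 0.0786).

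**Figure D5:**
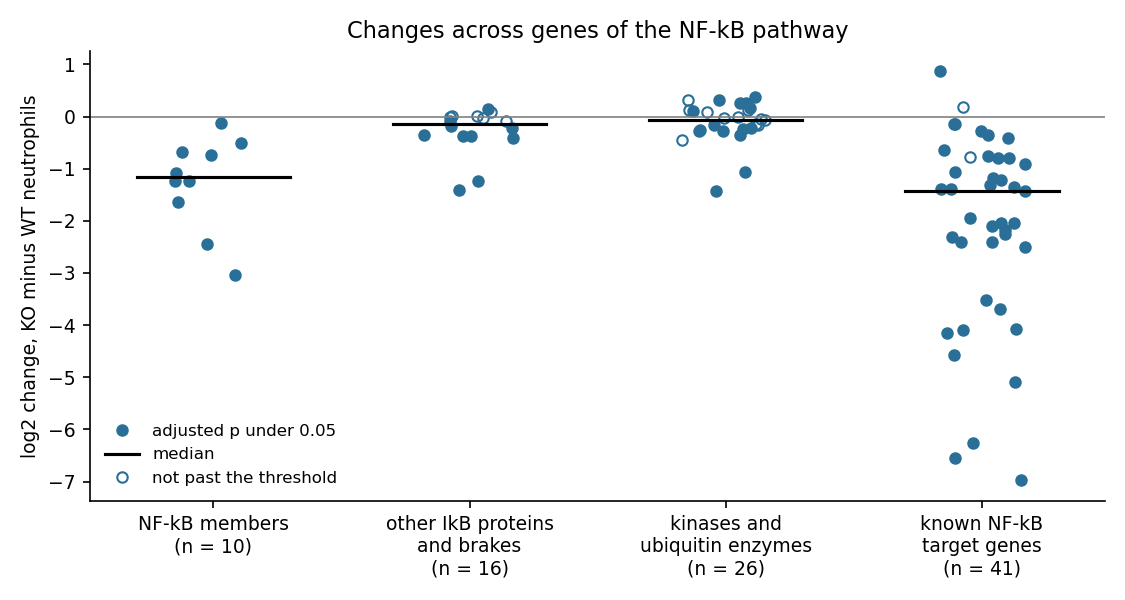
Log2 change of FPKM + 1, KO minus WT libraries, of each tested gene among the 10 NF-kB genes, the other IkB proteins and brakes, the kinases and ubiquitin enzymes, and the known target genes. Filled points passed an adjusted p of 0.05 in limma, open points did not, and bars are medians, at -1.17, -0.14, -0.065 and -1.42 from left to right.

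Promoter matches to the kB consensus were also counted in these lists. They were held by 7 of the 14 other brakes with a RefSeq entry (50%), 2 of 20 kinases and ubiquitin enzymes (10%) and 12 of 36 target genes (33.3%), beside 5.14% of all genes with an entry. As the lists were written from what is known of NF-kB regulation, these shares are descriptions and were not tested.

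Libraries of a group were close to each other, with Pearson's r across genes of 0.988 to 0.989 within a group (6 pairs) and 0.956 to 0.959 between groups (9 pairs), where genes are not independent replicates. The depth of the libraries is not given with FPKM values. FPKM summed to 314085 to 315632 in the WT and 323588 to 326868 in the KO libraries, and with a common sum 54.9% of all calls were in the lower direction, against 43.4% on the deposited scale, while all 10 NF-kB genes stayed lower and called. Cd177 itself was at 0.477, 0.113 and 0.151 FPKM in the WT and 0.109, 0.0217 and 0.0845 FPKM in the KO libraries, too low for a check of the neutrophil genotype in RNA from sorted microglia. Of 20 neutrophil markers none reached a mean of 1 FPKM, and 8, among them Ly6g, S100a9, Mpo and Elane, were listed at 0. Their summed level was 2.91 to 3.61 FPKM in the WT and 1.27 to 1.90 FPKM in the KO libraries, and no single value exceeded 1.13 FPKM. Of 15 microglia markers 5 reached a mean of 1 FPKM, led by Trem2, Csf1r and Tgfbr1, and P2ry12, Tmem119, Siglech, Gpr34, Olfml3, P2ry13 and Aif1 were among those under 1 FPKM. All 12 markers shared with other macrophages reached it, and none of 14 astrocyte and oligodendrocyte markers did. The summed microglia markers were at 36.3 to 39.1 FPKM in the WT and 58.9 to 60.3 FPKM in the KO libraries and the shared macrophage markers at 3407 to 3478 and 3663 to 3718 FPKM. Single markers, chosen after their values were seen, went in both directions. Trem2 had means of 12.0 and 28.0 FPKM and Mertk of 0.490 and 2.07 FPKM in the WT and KO libraries, while Cx3cr1 had means of 2.74 and 1.14 FPKM. Of the shared macrophage markers, Cd14 had means of 474.1 and 136.3 FPKM and Adgre1 of 101.3 and 39.3 FPKM. Others of these markers were higher in the KO libraries. Cd68 had WT and KO means of 371.7 and 491.3 FPKM, Lgals3 of 269.6 and 444.4 FPKM and Ctsd of 817.3 and 1121.2 FPKM. The part of these shifts in the NF-kB results was not tested.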

How the data were processed

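RNA-seq of microglia was analysed in 6 libraries, 3 per neutrophil genotype, with groups and replicate numbers read from the titles. As deposited by the authors, the data are FPKM values for each gene identifier in each library, without pooling. The submitters' processing notes name fastp 0.17.1, HISAT2 2.1.0, DESeq2 1.18.1 and R 3.4.3. The genome build, the annotation and the program that made the FPKM values are not given in the sources used here, and the labels and the methods name different library kits and sequencers. Of the 55335 identifiers, 55154 (99.67%) were found in GENCODE M21 (GRCm38), which gave symbols and positions.

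Counts were not used, so no count test was run. Depth was sought from the steps between low values, but only 24.3% to 25.4% of them came out whole within 0.05 fragments, against 10.0% by chance, so reads were not recovered and no counting interval is given. limma 3.58.1 in R 4.3.3 (lmFit, eBayes with a mean-variance trend) was fitted to log2(FPKM + 1) of 11395 genes whose mean over the libraries was 1 FPKM or higher, KO minus WT libraries, without covariates. All genes tested entered the Benjamini-Hochberg adjustment, and an adjusted p under 0.05 was a call. The study's own cut, a fold above 2 (here on the log2 scale above) at an unadjusted p under 0.05, was read from this fit too. Exact permutation tests (scipy 1.17.1), ratios and sums used FPKM without a pseudocount. The script was tested on simulated data.

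The genes and lists were chosen with earlier results of these data known. Named were the 10 NF-kB genes and Cd177, of each pathway list up to 5 called genes per direction with the smallest p, and of each marker list up to 3 genes of the highest level and those at 0 or under 1 FPKM. A further microglia marker is not reported here. Alternatives were a pseudocount of 0.1, no filter, a mean of at least 5 FPKM, quantile normalization, a common sum of all libraries, median centring, array weights, a fit without the variance trend, a replicate block, and leaving out each library.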

Additional observations from a re-analysis of the deposited data

How the results depend on the processing

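No called result changed direction. The difference in the ratio of Nfkb2 to Relb, 0.020 with overlapping groups, ranged from -0.175 to 0.275 with 1 library left out, and turned negative without WT library 1 (-0.040), WT library 2 (-0.175) or KO library 1 (-0.157). Of 148 values for the NF-kB genes under alternative settings 140 kept their side of the threshold, and the 8 that did not were all of Rela. The log2 change of Rela ranged from -0.172 to -0.095. The cause was not tested. At a fold above 2 and an unadjusted p under 0.05, 293 genes passed in place of 4930, and 6 of the 10 NF-kB genes. That setting adds the fold and drops the adjustment of p together. With 1 FPKM added to both genes, the log2 ratios to Rela moved from -1.22 to -1.12 for Nfkb1, -1.17 to -1.12 for Nfkb2, -1.18 to -0.96 for Relb, -0.87 to -0.56 for Nfkbie, -3.19 to -2.92 for Nfkbiz and -1.96 to -1.51 for Tnfaip3, as an added constant shrinks ratios of low values. Of 329 values for the other named genes 317 kept their call, and the 12 that did not were of Itch, Tab1 and Cdc37. Cdc37 lost it without WT library 1 or 3 or KO library 2 or 3 (limma adjusted p = 0.0642 to 0.0898), and also with the replicate block (0.0613), without the variance trend (0.0548) and with quantile normalization (0.0503). The sums, shares and ratios within them were recomputed without each library in turn, a choice made after seeing the data. All 90 values moved by less than the spread between replicates. This had to be so whatever the data, as leaving out 1 of 3 libraries moves a group mean by less than the SD of that group. It is therefore no check of these values. Leaving out 1 library gave 4081 to 4229 calls over all genes and 9 or 10 of the 10 NF-kB genes.

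The replicate numbers of the titles did not pair the libraries, with correlations of the deviations from the group means of -0.075, -0.052 and -0.005 for numbers 1 to 3. With the replicate block, limma called 4212 genes and 9 of the 10 NF-kB genes. Depth is unknown, so counting error of low genes such as Nfkbie could not be given.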
